A study of Arabidopsis thaliana with 16 samples.

Results

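The genes described here are 36 Arabidopsis loci of starch synthesis (16 genes) and starch degradation (20 genes), measured in wild type and HSFA2 knockout callus cells grown in spaceflight or on the ground. A gene was a member when its locus stood in the list of ADP-glucose pyrophosphorylase, starch synthase, branching, debranching, glucan phosphorylating, amylase, disproportionating, maltose export and phosphorylase genes and the array annotation gave that locus for a probe set. All 36 loci had exactly 1 probe set, 0 of these probe sets were assigned to another locus, and they were 36 of 22687 probe sets tested. WT cells were of the Col-0 ecotype, and the HSFA2 KO cells came from the T-DNA insertion line SALK_008978C in the same ecotype. HSFA2 is a heat stress transcription factor. Both cell lines were started from hypocotyls and kept in the dark on sucrose medium with the auxin 2,4-D, so a supply of sugar and an absence of light were shared by all groups. Cells 14 days old were fixed in RNAlater after 10 days in orbit (FWt and FHsf), or in ground hardware run with a delay of 48 h (GWt and GHsf). FWt and GWt each held 5 arrays of 4 plates by their titles, from 2 canisters (BRIC A and BRIC B). The study's methods count 5 WT plates per environment, while its results count 4 replicates in GWt. FHsf and GHsf each held 3 arrays, all from BRIC B, and by their titles 2 of the 3 GHsf arrays, B3 and B3-2, came from the same plate. The source name of GHsf B3-2 gives another plate, so GHsf holds 2 plates by titles and 3 by source names, and its arrays were kept apart. The genotype comparisons therefore also hold a difference of culture line, of which there was 1 per genotype, and of canister. Nothing in the labels says that plates were separate cultures, so p-values measure the spread between these plates and arrays.

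As background, starch is built in the plastid from hexose phosphate. Phosphoglucose isomerase and phosphoglucomutase supply glucose 1-phosphate, ADP-glucose pyrophosphorylase activates it, starch synthases elongate the chains, branching enzymes add branch points and the isoamylase complex trims misplaced ones so that the granule can crystallise. Breakdown begins with phosphorylation of the granule surface by glucan dikinases, followed by beta-amylases and debranching enzymes, and the maltose formed leaves the plastid through an exporter and is metabolised in the cytosol. In leaves these genes serve a daily cycle of storage and release, whereas cultured cells depend on sugar from the medium.

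The knocked out gene checked the labels: the HSFA2 signal was 4338 ± 1357 in GWt and 7334 ± 2061 in FWt (SD, n = 4), against 51.7 ± 38.5 in GHsf and 82.1 ± 76.0 in FHsf (SD, n = 3). Every array had a 2% trimmed mean signal of 500.1, while array medians ran from 68.7 to 123.1. Of the callus founder genes, LBD16 had signals of 151 to 1085 over the 14 units. LBD17 (2.94 to 72.8), LBD18 (5.86 to 166) and LBD29 (2.81 to 170) had mean signals below the median of all probe sets. Summed signals ran from 173 to 813 for 5 xylem genes, 23.2 to 287 for 2 root hair genes and 62.0 to 196 for 3 seed storage genes. In each of these 3 lists the ranges of the 4 groups overlapped. The summed signal of 6 photosynthesis genes was 335 to 499 in GWt, 302 to 472 in FWt, 609 to 660 in GHsf and 309 to 593 in FHsf, with 0 of the genes at 0. In GHsf : GWt 5 of these 6 genes were higher and 1 lower, with a median log2 fold change of 1.21. Values ran from -0.54 for RCA to 2.57 for RBCS1A, whose probe set was also assigned to 3 other loci. The probe sets of RBCS1A, LHCA1, PSBO1 and PSAD1 had mean signals below the median of all probe sets. In the same comparison 5 of 5 xylem genes were higher (median 0.59), and of 3 seed storage genes 2 were higher and 1 lower (median 0.06). Of 4 callus founder genes 3 were higher and 1 lower (median 1.15), and 2 of 2 root hair genes were higher (median 1.36). Over all probe sets the median log2 fold change was 0.12 in GHsf : GWt and between -0.07 and 0.07 in the other 3 comparisons. Quantile normalization moved the GHsf : GWt median to -0.01. In these bulk samples fewer cells of a type and less RNA per cell cannot be told apart.

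How well a starch gene could be measured depended on the brightness of its probe set. Of the 36 members, 21 lay over the median signal of all probe sets (59.4) and 15 below it. The members over the median varied within groups by a median SD of 0.464 on the log2 scale, and those below it by 1.71. All probe sets showed 0.427 and 1.51. The degradation list held 13 probe sets over the median with a median SD of 0.369, and the synthesis list held 8 with 0.755. The steadiest member was PHS2 (At3g46970, cytosolic glucan phosphorylase) with an SD of 0.167, and the most variable was APL3 (At4g39210, a large subunit of ADP-glucose pyrophosphorylase) with 2.21. The value table gave no detection calls, so a low signal is not a statement that a transcript was absent, and signals of different probe sets were not ranked as transcript levels.

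**Figure D1:**
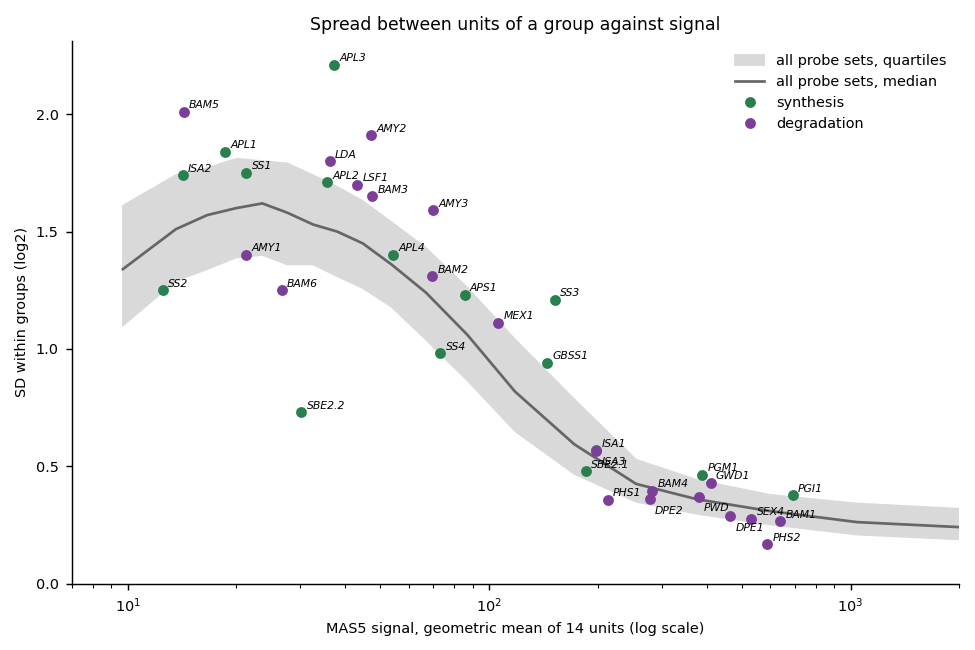
Within-group SD of log2 signal (y axis) against the geometric mean signal over 14 units (x axis, log scale) for the 16 synthesis (green) and 20 degradation (purple) genes, with the median (line) and quartiles (band) of all probe sets. The SD was smaller at high signal in the members, as in all probe sets, from up to 2.21 at low signal to 0.167 for PHS2. Some members, among them APL3 (2.21) and PHS2, lie outside the quartile band.

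Between the groups, most starch genes did not pass the thresholds, which asked for a change of more than 2-fold (1 on the log2 scale) with an unadjusted limma p below 0.01. In FWt : GWt 0 of 36 members passed, beside 0.807% of all probe sets, and 1 member had an unadjusted p under 0.05, beside 4.39% of all. In FHsf : GHsf 1 of 36 passed (2.78%, beside 1.51% of all probe sets), and 2 had a p under 0.05 (5.56%, beside 6.89%). In GHsf : GWt 0 of 36 passed, beside 2.46% of all, and 3 had a p under 0.05 (8.33%, beside 10.7%). In FHsf : FWt 1 of 36 passed (2.78%, beside 1.75%), and 1 had a p under 0.05, beside 7.93% of all. The difference of the 2 spaceflight responses passed in 0 of 36 members, beside 1.02% of all probe sets, with a p under 0.05 in 1, beside 4.74%. These shares were near the background, so the count of called members is not a result about the starch genes as a list. After Benjamini-Hochberg adjustment over all probe sets, 0 of 36 members had an adjusted p under 0.05 in any of the comparisons, and 1 probe set of all 22687 did in each comparison except FWt : GWt, where 0 did.

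**Figure D2:**
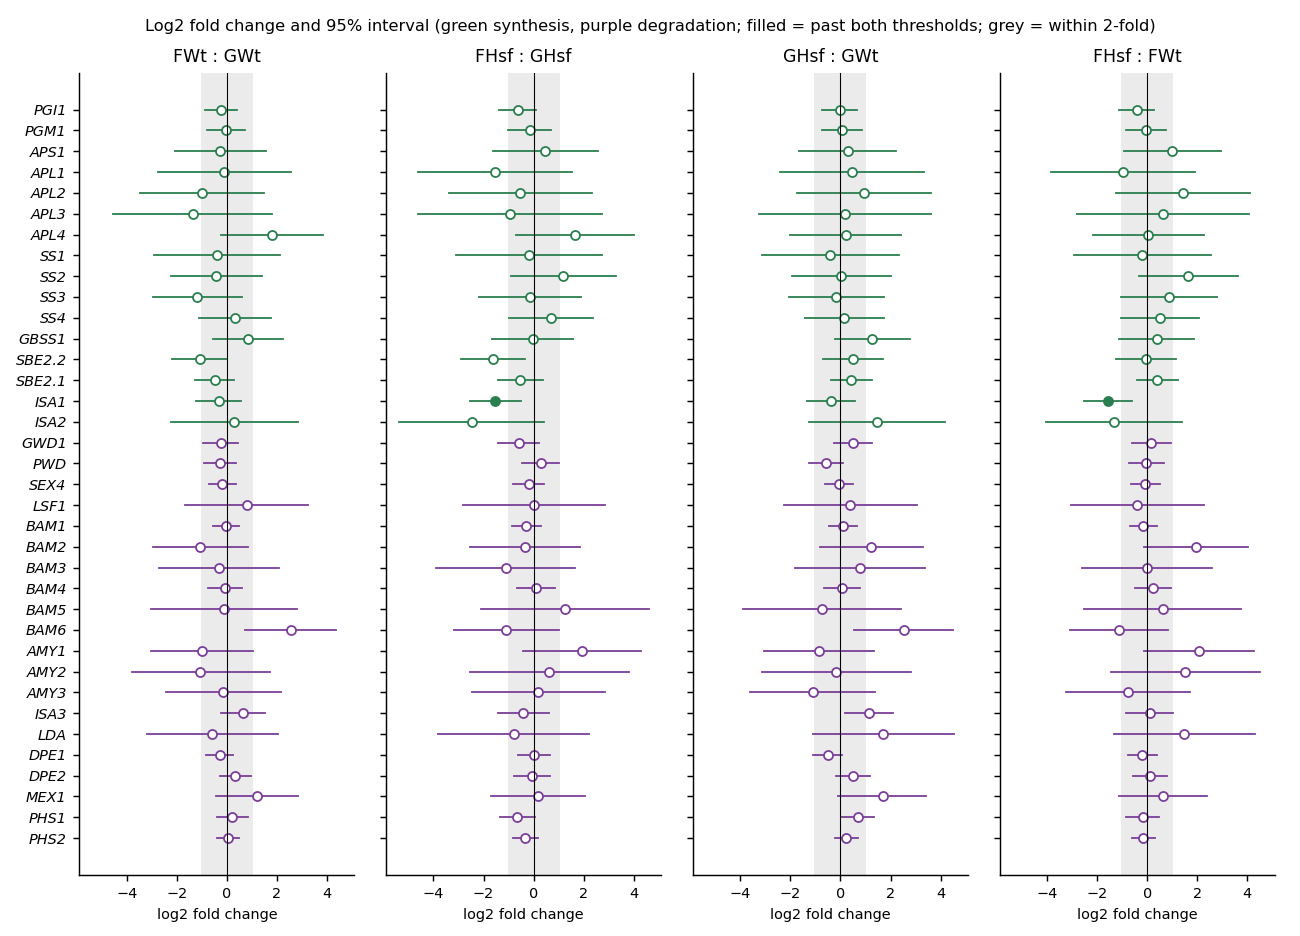
Log2 fold change (points) and 95% interval (lines) of each starch gene in 4 comparisons, with synthesis genes in green and degradation genes in purple. Filled points mark members past both thresholds, which were ISA1 at -1.54 in FHsf : GHsf and at -1.58 in FHsf : FWt, and the grey band spans a change of 2-fold in either direction.

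The member that passed was ISA1 (At2g39930), the catalytic subunit of the isoamylase complex that trims branches during amylopectin synthesis. It lies on chromosome 2, from 16666078 to 16672183 on the coordinates of the array annotation, whose genome build is not stated there. The ISA1 signal was 281, 386, 270 and 268 in GWt plates A1, A2, B1 and B2, and 244, 249, 233 and 221 in the same plates of FWt. In the knockout it was 233, 266 and 195 in GHsf arrays B3, B3-2 and B5-2, and 126, 30.1 and 131 in FHsf arrays B3-2, B4 and B5. All 3 FHsf values lay under every value of the other 3 groups, and FHsf B4 was far under the other FHsf arrays. Mean signals were 301 ± 56.8 in GWt, 237 ± 12.4 in FWt (SD, n = 4), 231 ± 35.2 in GHsf and 95.6 ± 56.8 in FHsf (SD, n = 3 arrays, of which 2 GHsf arrays share a plate by their titles).

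ISA1 was lower in FHsf than in GHsf by a log2 fold change of -1.54 (SE 0.47, limma p = 0.00684, adjusted p = 0.591, exact two-sided permutation p = 0.1), in a direction in which 0.961% of all probe sets passed. It was lower in FHsf than in FWt by -1.58 (SE 0.44, limma p = 0.00376, adjusted p = 0.364, exact two-sided permutation p = 0.029), where 0.573% of all probe sets passed in that direction. Both comparisons rest on the same 3 FHsf arrays. Each permutation p is the smallest that these group sizes allow, and both treat arrays as independent. In WT the change with spaceflight was -0.33 (95% interval -1.22 to 0.56), and on the ground the knockout differed from WT by -0.38 (-1.33 to 0.58). In both of these the groups did not overlap, with an exact two-sided permutation p of 0.029, while the limma p was 0.431 and 0.408. The response of the knockout minus that of WT was -1.2 (SE 0.62, interval -2.56 to 0.15, adjusted p = 0.999), so a difference between the genotypes in the ISA1 response did not pass. Without FHsf B4 the fold changes were -0.84 and -0.88, and both calls ended because the change was under 2-fold. The FHsf : GHsf call also ended, through the p threshold, with the GHsf B3 arrays averaged (-1.48, adjusted p = 0.867), without any single GHsf array (-1.65 to -1.43), with quantile normalization (-1.51) and with the WT plates of BRIC B alone (-1.54). The FHsf : FWt call ended with the WT plates of BRIC B alone (-1.52) and with canister as a term (-1.48). Array run was inferred: arrays titled Rep2 were taken as a second run and all others as the first, and the titles name no run. So read, run was mixed in the knockout groups. The first-run arrays read 30.1 and 131 in FHsf and 233 in GHsf, and the second-run arrays 126 in FHsf and 266 and 195 in GHsf. With array run as a term both calls remained, at -1.52 in FHsf : GHsf and -1.60 in FHsf : FWt. With first-run arrays only, which left GHsf with 1 array, the fold changes were -1.89 in FHsf : GHsf and -2.0 in FHsf : FWt. In FHsf : GHsf, the summed signal of the 6 photosynthesis genes was lower in FHsf (309 to 593) than in GHsf (609 to 660). Of these genes 5 were lower and 1 higher, with a median log2 fold change of -0.55. Values ran from -2.89 for PSBO1, whose probe set lay below the median signal, to 0.21 for RCA. Of 5 xylem genes 4 were lower and 1 higher (median -0.76), and of 3 seed storage genes 1 was lower and 2 higher (median 0.82). Callus founder genes were 2 lower and 2 higher (median -0.15), and root hair genes 1 and 1 (median -0.21). In FHsf : FWt 4 of 6 photosynthesis genes were higher and 2 lower (median 0.48), and the FWt sums were 302 to 472. Xylem genes there were 1 higher and 4 lower (median -0.37), and seed storage genes 3 higher and 0 lower (median 1.04). Callus founder genes were 2 higher and 2 lower (median 0.31), and root hair genes 1 and 1 (median 0.30). The part of these markers in the ISA1 result was not tested. The study named ISA1 from these same samples, and the values are no independent evidence of its direction.

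ISA2 (At1g03310), the partner subunit of ISA1 in Arabidopsis, had signals of 3.01 to 164 over the 14 units. Its FHsf values were 7.41, 10.7 and 3.01, and its GHsf values 164, 4.86 and 52.3. The groups overlapped, and the log2 fold change of -2.48 had an interval of -5.39 to 0.43. The ISA2 values varied within groups by an SD of 1.74 on the log2 scale, against 0.568 for ISA1, and a change of the partner subunit was not detectable at this precision.

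**Figure D3:**
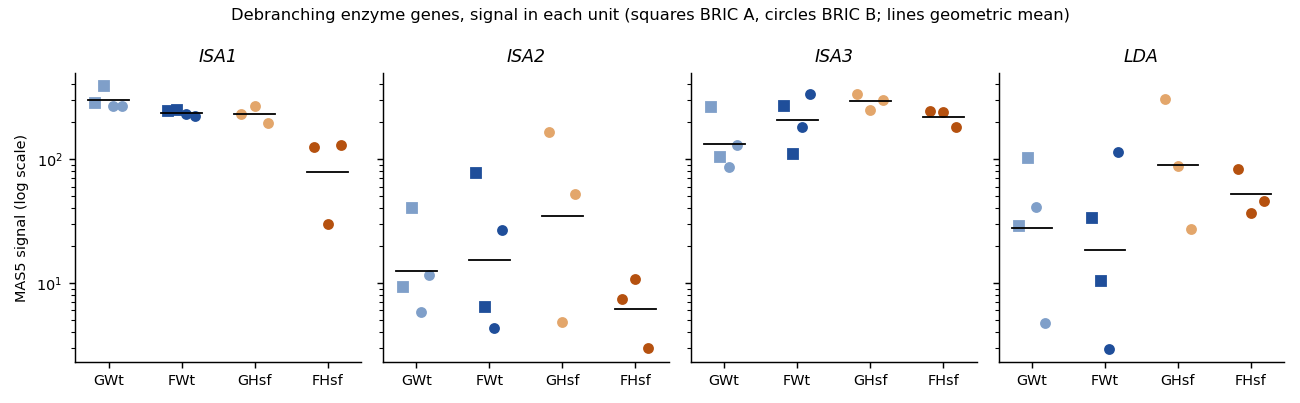
MAS5 signal (log scale) of ISA1, ISA2, ISA3 and LDA in each of 14 units by group, with squares for BRIC A, circles for BRIC B and lines for geometric means. The 3 FHsf values of ISA1, from 30.1 to 131, sit under all other ISA1 values, while ISA2 runs from 3.01 to 164 and LDA from 2.95 to 307.

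Among the genes that supply hexose phosphate, PGI1 (At4g24620, plastidial phosphoglucose isomerase) had signals of 861, 554, 1010.0 and 864 in GWt and 550, 1119, 684 and 500 in FWt. It read 793, 963 and 647 in GHsf and 495, 476 and 553 in FHsf. The 3 FHsf values lay under the 3 GHsf values, with a log2 fold change of -0.64 (interval -1.38 to 0.10, adjusted p = 0.756). PGM1 (At5g51820, plastidial phosphoglucomutase) was steady, with fold changes between -0.16 and 0.07 in the 4 comparisons and intervals within 2-fold in 3 of them.

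ADP-glucose pyrophosphorylase is built from a small subunit and large subunits. The small subunit gene APS1 (At5g48300) had signals of 20.7, 77.3, 216 and 102 in GWt and 84.7, 91.0, 53.6 and 41.8 in FWt. It read 104, 357 and 22.5 in GHsf and 170, 139 and 93.4 in FHsf. The GWt and GHsf values each ran past both ends of the FWt and FHsf values, and no fold change of APS1 passed (-0.26, 0.47, 0.29 and 1.01 in FWt : GWt, FHsf : GHsf, GHsf : GWt and FHsf : FWt). Of the large subunit genes, APL1 (At5g19220), APL2 (At1g27680) and APL3 had negative fold changes with spaceflight in both genotypes, with intervals that spanned 0 by wide margins. APL4 (At2g21590), the large subunit with the opposite sign, read 32.8, 87.9, 13.6 and 16 in GWt and 109, 126, 46.6 and 141 in FWt. It read 4.25, 62.9 and 128 in GHsf and 112, 116 and 78.0 in FHsf. Its fold changes were 1.79 (interval -0.25 to 3.83) in WT and 1.63 (-0.72 to 3.99) in the knockout, and the groups overlapped in both. APL4 was singled out after its values were seen.

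The starch synthase with the brightest probe set was SS3 (At1g11720), which read 173, 263, 217 and 184 in GWt and 229, 210, 11.7 and 123 in FWt. Plate B1 was far under the other FWt plates, and the fold change of -1.18 in FWt : GWt did not pass (interval -2.94 to 0.59). SS3 read 230, 319 and 85.9 in GHsf and 210, 130 and 169 in FHsf. GBSS1 (At1g32900), the granule-bound synthase that makes amylose, had mean signals of 115 ± 78.2 in GWt and 161 ± 54.5 in FWt (SD, n = 4), and 212 ± 66.9 in GHsf and 203 ± 50.1 in FHsf (SD, n = 3). Its difference on the ground was 1.27 (interval -0.23 to 2.78, adjusted p = 0.546). SS4 (At4g18240), which acts in granule initiation, did not overlap between FHsf (102 to 112) and GHsf (45.9 to 87.8), with a fold change of 0.68 (interval -0.99 to 2.35). SS1 (At5g24300) and SS2 (At3g01180), which elongate amylopectin chains, lay low, between 4.68 and 128, with fold changes from -0.43 to 1.64.

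Both branching enzyme genes had lower means in spaceflight in both genotypes, and neither passed. SBE2.2 (At5g03650) read 27.1, 23.7, 92.7 and 48.8 in GWt and 13.9, 15.4, 31.3 and 21.2 in FWt. It read 27.0, 68.0 and 105 in GHsf and 21.3, 16.9 and 18.8 in FHsf. The FHsf values lay under all GHsf values, with a fold change of -1.61 (SE 0.58, interval -2.89 to -0.34, adjusted p = 0.653), and the FWt and GWt values overlapped at -1.09 (interval -2.19 to 0.01). SBE2.2 was named after its values were seen. SBE2.1 (At2g36390) read 243, 111, 299 and 174 in GWt, 87.2, 180, 139 and 164 in FWt, 270, 327 and 207 in GHsf and 180, 236 and 144 in FHsf, with fold changes of -0.49 and -0.53 with spaceflight in WT and knockout.

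Of the genes that phosphorylate and dephosphorylate the granule, SEX4, GWD1 and PWD lay over the median signal and LSF1 below it. SEX4 (At3g52180, a glucan phosphatase) read 674, 518, 682 and 467 in GWt and 600, 490, 382 and 599 in FWt. It read 534, 712 and 451 in GHsf and 523, 442 and 495 in FHsf. Its intervals lay within 2-fold in all 4 comparisons, with fold changes from -0.20 to -0.05. GWD1 (At1g10760, the dikinase that starts phosphorylation) and PWD (At5g26570, the dikinase that follows it) had signals of 166 to 731 and 220 to 595. GHsf lay over GWt without overlap for GWD1 (480 to 731 against 349 to 436, fold change 0.51) and under it for PWD (292 to 324 against 434 to 500, fold change -0.58), and neither passed (adjusted p = 0.637 and adjusted p = 0.548). FHsf also lay apart from GHsf for both, under it for GWD1 (332 to 463) and over it for PWD (330 to 431). LSF1 (At3g01510), a phosphatase-like protein, read 31.2 to 36.7 in GWt and 7.09 to 225 in the other groups, with a within-group SD of 1.7 on the log2 scale.

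Of the beta-amylases, BAM1 (At3g23920, a plastidial enzyme) read 526, 578, 683 and 848 in GWt and 751, 568, 704 and 545 in FWt. It read 551, 873 and 716 in GHsf and 541, 537 and 654 in FHsf. BAM1 and BAM4 (At5g55700, a non-catalytic member that promotes starch breakdown) had intervals within 2-fold in all 4 comparisons, with fold changes from -0.29 to 0.24. BAM3 (At4g17090), the main leaf enzyme at night, had signals of 4.16 to 146 and BAM2 (At4g00490) of 10.2 to 212, with no fold change past the thresholds. BAM5 (At4g15210), found outside the plastid, had signals of 2.17 to 91.4. BAM6 (At2g32290), chosen here after its values were seen, read 40.2, 3.56, 12.8 and 3.53 in GWt and 49.1, 28.2, 68.1 and 78.2 in FWt. It read 42.3, 56.9 and 56.8 in GHsf and 40.3, 6.40 and 54.2 in FHsf. GWt was the low group, although its plate A1 lay among the FWt values. The other GWt plates lay under the lower quartile of every array (16.2 to 33.3) and were not shown to be above background. BAM6 had fold changes of 2.54 in FWt : GWt (SE 0.83, interval 0.72 to 4.36, adjusted p = 1.0) and 2.52 in GHsf : GWt (SE 0.90, adjusted p = 0.349), which share the GWt plates, and a genotype difference in the spaceflight response of -3.63 (SE 1.27, adjusted p = 0.999). None of the 3 passed the p threshold, and BAM6 was called in FWt : GWt under 5 of 26 alternatives. Over the alternatives its fold change ran from 0.93 to 3.44 in FWt : GWt and from 0.9 to 3.24 in GHsf : GWt. The size of these changes is therefore uncertain. The summed signal of 4 callus founder genes was 285 to 491 in GWt, 529 to 992 in FWt, 423 to 1226 in GHsf and 573 to 685 in FHsf, so GWt overlapped GHsf. LBD16 made up most of it in every unit except GWt B1, and the log2 fold changes in FWt : GWt were 1.18 for LBD16, 1.36 for LBD18, 0.09 for LBD29 and -0.76 for LBD17. The part of these in the BAM6 values was not tested.

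The alpha-amylase genes were measured with wide errors. AMY3 (At1g69830), the plastidial enzyme, read 186, 63.7, 149 and 50.8 in GWt, 106, 95.6, 110 and 52.2 in FWt, 96.6, 130 and 7.42 in GHsf and 178, 7.74 and 99.5 in FHsf. Single low arrays occurred in both knockout groups, and its fold changes lay between -1.10 and 0.19. AMY1 (At4g25000), a secreted enzyme, and AMY2 (At1g76130) had signals of 5.06 to 148 and 5.23 to 178. AMY1 was 1.93 higher in FHsf than in GHsf on the log2 scale (interval -0.42 to 4.28) while its change in WT was -0.99 (interval -3.02 to 1.05), and the groups overlapped in both.

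The debranching enzyme of breakdown, ISA3 (At4g09020), read 261, 103, 85.8 and 130 in GWt and 268, 109, 183 and 334 in FWt. It read 333, 250 and 302 in GHsf and 246, 240 and 180 in FHsf. GHsf had the highest mean, with GWt A1 and FWt A1 inside its range and FWt B2 just above it, and the difference on the ground was 1.15 (SE 0.44, interval 0.20 to 2.11, adjusted p = 0.373). LDA (At5g04360), the limit dextrinase, had signals of 2.95 to 307 and a difference on the ground of 1.71 (interval -1.10 to 4.52).

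The plastidial disproportionating enzyme DPE1 (At5g64860) read 494, 601, 656 and 538 in GWt, 639, 539, 380 and 367 in FWt, 337, 532 and 365 in GHsf and 381, 407 and 435 in FHsf. Its intervals lay within 2-fold in 3 comparisons, and the difference on the ground was -0.50 (interval -1.08 to 0.08). DPE2 (At2g40840), which metabolises maltose in the cytosol, also had intervals within 2-fold in 3 comparisons and fold changes from -0.07 to 0.51. MEX1 (At5g17520), the maltose exporter of the plastid envelope, read 125, 119, 8.82 and 44.8 in GWt and 219, 93.8, 94.3 and 86.0 in FWt. It read 83.9, 224 and 209 in GHsf and 218, 187 and 137 in FHsf. GWt B1 and B2 were the low plates, and MEX1 had fold changes of 1.2 in FWt : GWt (interval -0.42 to 2.83) and 1.68 in GHsf : GWt (interval -0.08 to 3.43). PHS1 (At3g29320), the plastidial phosphorylase, was higher in GHsf (227 to 341) than in GWt (152 to 209) without overlap, by 0.69 (SE 0.31, adjusted p = 0.450), a change under 2-fold. PHS2 read 545, 574, 652 and 524 in GWt, 691, 569, 579 and 538 in FWt, 601, 620 and 814 in GHsf and 551, 482 and 570 in FHsf. Its intervals lay within 2-fold in all 4 comparisons, and the widest change was -0.33 (interval -0.82 to 0.16) in FHsf : GHsf.

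**Figure D4:**
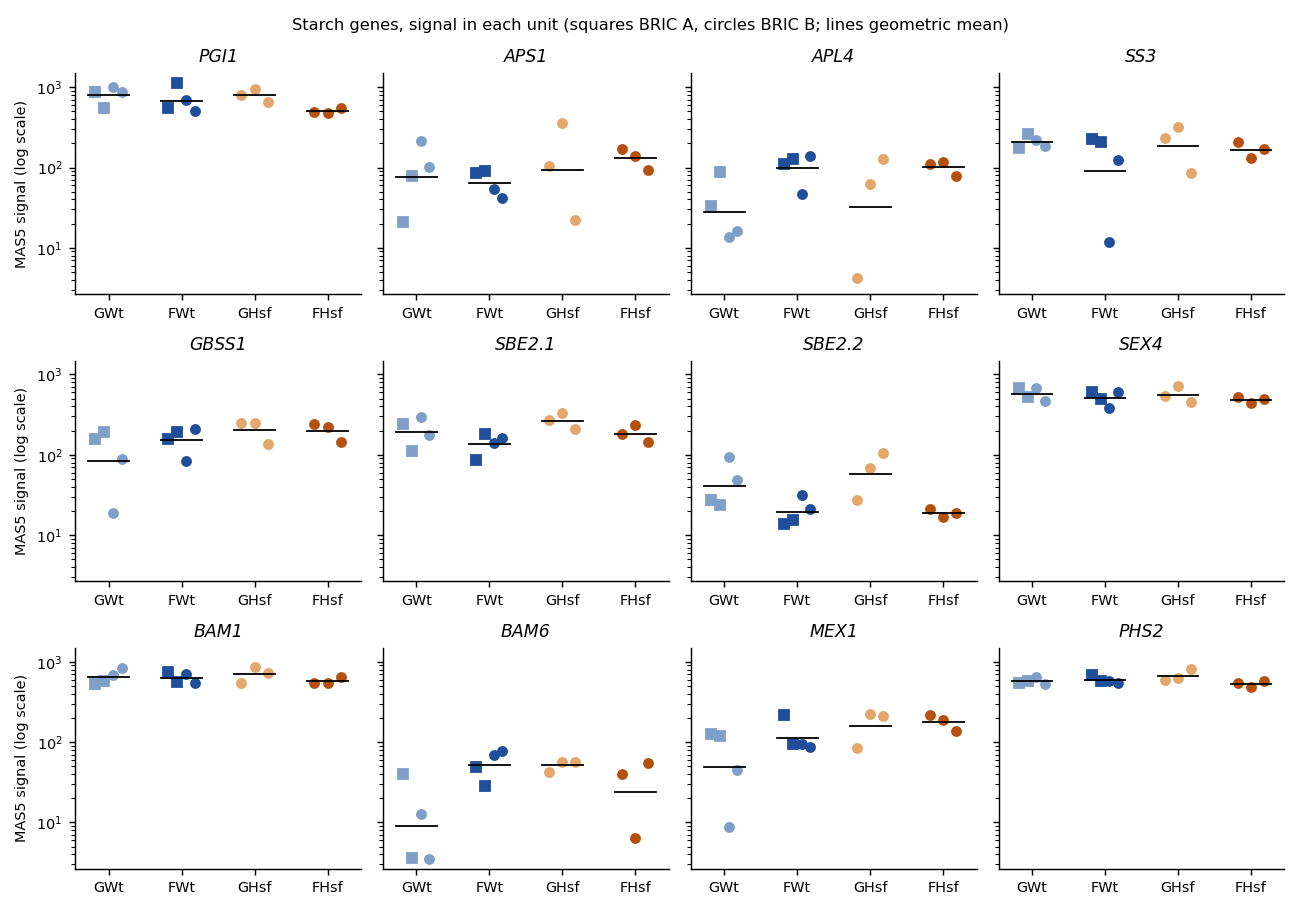
MAS5 signal (log scale) of 12 starch genes in each of 14 units by group, with squares for BRIC A, circles for BRIC B and lines for geometric means. PGI1, SEX4, BAM1 and PHS2 stay within 382 to 1119 in every unit, while APS1 runs from 20.7 to 357 and BAM6 from 3.53 to 78.2.

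As a list, more synthesis genes had lower than higher means with spaceflight in both genotypes. In FWt : GWt 4 of 16 synthesis genes were higher and 12 lower, with a median log2 fold change of -0.29 beside -0.03 over all probe sets, of which 46.9% were higher. In FHsf : GHsf the synthesis counts were again 4 higher and 12 lower, with a median of -0.36 beside -0.07. Of the 8 synthesis genes over the median signal, 2 were higher and 6 lower in both FWt : GWt and FHsf : GHsf. Their medians were -0.25 and -0.15, beside -0.02 in both for all probe sets over the median signal. These 2 comparisons share no samples, and 10 of 16 synthesis genes (62.5%) were lower in both, beside 30.4% of all probe sets. Of these 10, 1 (ISA1) passed the thresholds in FHsf : GHsf and 0 passed in FWt : GWt. All knockout arrays came from BRIC B. In WT, 7 of 16 synthesis genes (43.8%) had the same sign of change in BRIC A and BRIC B, beside 50.9% of all probe sets. Of these 7, 5 were lower in both canisters, so the WT lowering was not shared by the canisters for most synthesis genes. Degradation genes had 7 of 20 higher in FWt : GWt (median -0.13) and 9 of 20 in FHsf : GHsf (median -0.13), and 6 of 20 (30.0%) were lower in both.

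On the ground, 12 of 16 synthesis genes and 13 of 20 degradation genes had higher means in the knockout, with medians of 0.20 and 0.31 beside 0.12 over all probe sets, of which 56.7% were higher. In spaceflight the medians of FHsf : FWt were 0.22 and 0.05 beside 0.07. The intervals of 11, 6, 6 and 10 of 36 members lay within 2-fold in FWt : GWt, FHsf : GHsf, GHsf : GWt and FHsf : FWt (30.6%, 16.7%, 16.7% and 27.8%), beside 26.1%, 19.8%, 18.6% and 20% of all probe sets. Groups did not overlap for 1 of 36 members in FWt : GWt (3.07% of all probe sets), 8 of 36 in FHsf : GHsf (22.2%, beside 13.0%), 5 of 36 in GHsf : GWt (13.9%, beside 13.2%) and 2 of 36 in FHsf : FWt (5.56%, beside 10.5%).

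The WT list medians moved with single plates. Expressed as the deviation of each gene from its own mean over 14 units, the synthesis median was -0.72 in FWt B1 and -0.01 to 0.28 in the other FWt plates, and it was 0.57 in GWt B1 and -0.30 to 0.16 in the other GWt plates. FWt B1 was the lowest FWt plate for 15 of 36 members (41.7%, beside 30.5% of all probe sets), and GWt B1 the highest GWt plate for 16 of 36 (44.4%, beside 32.4%). Over all 36 members the FWt : GWt median was -0.21, and leaving out 1 WT plate moved it to between -0.31 (without FWt A1) and -0.03 (without GWt B1). It was -0.06 without FWt B1 and -0.27 without GWt B2. In FHsf : GHsf the members' median was -0.20, and -0.37 to -0.13 with 1 knockout array left out. Within canisters, 16 of 36 members (44.4%) had the same sign of change with spaceflight in BRIC A and BRIC B, beside 50.9% of all probe sets. ISA1 was -0.42 in BRIC A and -0.24 in BRIC B, BAM6 was 1.64 and 3.44, APL4 was 1.12 and 2.46, and SS3 was 0.04 and -2.40. The degradation median in GHsf was 0.37 to 0.47 in the 3 arrays and -0.22 to 0.25 in the other units, beside 0.07 to 0.21 for all probe sets in GHsf. Over the 13 degradation genes above the median signal, GHsf read 0.14, 0.33 and 0.47 and overlapped the other units, of which FWt A1 was the highest at 0.23. By titles 2 of these 3 arrays share a plate, and the photosynthesis sum was highest in the same arrays (609 to 660). Its part in the degradation median was not tested.

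**Figure D5:**
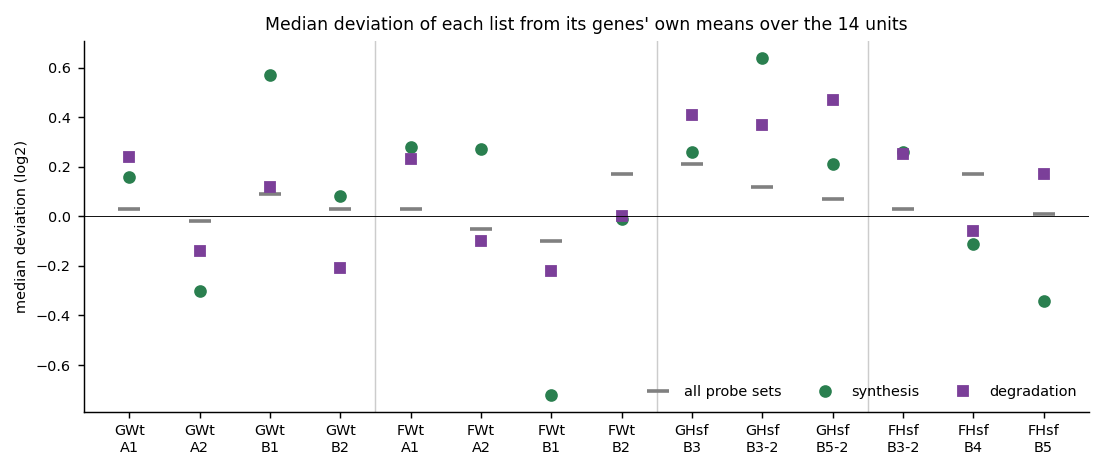
Median deviation (log2) of synthesis genes (circles), degradation genes (squares) and all probe sets (dashes) from each gene's own mean over 14 units, by unit and group. Synthesis genes run from -0.72 in FWt B1 to 0.64 in GHsf B3-2, and degradation genes sit at 0.37 to 0.47 in GHsf.

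Of 27 related genes of sugar and starch metabolism, 25 were measured by a probe set named for their locus. In FWt : GWt 1 of 25 was called higher and 1 lower (8.0%, beside 0.807% of all probe sets). GWD2 (At4g24450), a homologue of the dikinase GWD1, read 6.29, 4.43, 7.86 and 4.25 in GWt and 39.3, 35.3, 102 and 106 in FWt, without overlap. All 4 GWt values lay under the lower quartile of every array (16.2 to 33.3), and nothing in the files shows them to be above background. The fold change was 3.49 (adjusted p = 0.818) on the log2 signal and 1.37 on log2(signal + 32), and its size is therefore uncertain. In the knockout it read 49.7, 91.9 and 3.99 in GHsf and 42.8, 72.2 and 34.1 in FHsf. BE1 (At3g20440), a branching enzyme homologue, read 67.8, 66.1, 111 and 160 in GWt and 32.9, 50.0, 38.8 and 24.4 in FWt. It was lower by -1.42 (SE 0.42, interval -2.34 to -0.50, adjusted p = 1.0), and 11 of 27 alternatives ended the call. In GHsf : GWt 1 of 25 was called (4.0%, beside 2.46% of all probe sets). HXK1 (At4g29130), hexokinase and glucose sensor, read 24.7, 58.1, 6.43 and 86.7 in GWt and 202, 273 and 71.3 in GHsf. The HXK1 groups overlapped, its fold change was 2.40 (SE 0.76, interval 0.74 to 4.06, adjusted p = 0.298), and 18 of 26 alternatives ended the call. In FHsf : GHsf, FHsf : FWt and the difference of responses, 0 of 25 related genes passed, beside 1.51%, 1.75% and 1.02% of all probe sets. At an unadjusted p under 0.05 there were 0, 1 and 1 of 25, beside 6.89%, 7.93% and 4.74%. Sucrose synthase genes SUS1 (At5g20830) and SUS4 (At3g43190), which cleave incoming sucrose, were among the steadiest of the related genes, with SDs of 0.18 and 0.17. SUS4 read 18038 to 20291 in GWt and 10839 to 14585 in GHsf, a fold change of -0.63 (adjusted p = 0.317) that stayed under 2-fold.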

How the data were processed

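RNA of 16 samples was hybridised to Affymetrix ATH1 arrays. The deposited values are MAS5 signals, linear intensity values that the authors computed with the MAS 5.0 algorithm from scans read with Affymetrix Expression Console, and the 2% trimmed mean of every array is 500.1. The study's methods also name a quantile step, but array medians differ, so these values had not been through one. The deposited fold change and p-value columns of the authors' own comparisons were not used. Groups came from the sample labels. Signals were taken to log2. Plate A1 of each WT group, on 2 arrays by the titles, was averaged, which left 14 units. Over probe sets above the median signal these 2 arrays correlated at 0.900 in FWt and 0.903 in GWt. GHsf B3 and B3-2 correlated at 0.875, beside a median of 0.908 for pairs of units in 1 group. The values for arrays with the same plate title were thus no higher than that median. The median includes WT units averaged over 2 arrays, so the measures differ and do not settle whether such arrays are more alike. The 22687 probe sets were fitted in limma 3.58.1 (R 4.3.3) by lmFit and eBayes with 1 mean per group (10 residual and 11.65 total degrees of freedom). A call needed more than 2-fold change with a p below 0.01, thresholds taken from the study's methods and read here as unadjusted, and Benjamini-Hochberg values are printed beside. Means and SDs are of linear signals, fold changes are of log2 values, and single-gene permutation tests were exact and two-sided, on log2 values. No depth applies to arrays, so their number limits precision. The fit was tested on simulated data.

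Member genes and gene lists were chosen with earlier results of these data known. Genes given in every unit were those that passed and the brightest of each role, and others are marked as chosen after their values were seen. Of the related genes, NTT1 and ESV1 had no probe set named for their locus. The probe set named for NTT2 was also assigned to NTT1, so its values can hold both transcripts. The alternatives changed normalization, offset, filter, variance trend, handling of repeat arrays, array run, canister and replicates. Gene sequences were not used here.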

Additional observations from a re-analysis of the deposited data

Results flagged for a closer look

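In groups of 4 plates, 5 of 72 sets of values of the starch genes held 1 plate far from the other 3 by Dixon's test (at the 95% level), where chance gives about 1 in 20. In FWt B1, PGM1 read 196 (the other FWt plates 454 to 499) and SS4 read 36.5 (88.0 to 105). In FWt A1, APL2 read 123 (7.16 to 10.7) and MEX1 read 219 (86.0 to 94.3). In GWt A2, ISA1 read 386 (268 to 281).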

How the results depend on the processing

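Counts of called starch genes were compared under 12 other ways of processing, 14 fits that left out 1 unit and 2 alternatives chosen after seeing the data. Of 4713 combinations of gene, comparison and alternative, 4677 kept their side of the thresholds, 13 calls were lost, 23 were gained and 0 called values changed sign, and the cause of the changes was not tested. In FWt : GWt the count of 0 became 1 (BAM6) with the first-run arrays of plate A1 and with plate position as a replicate block. In FHsf : GHsf the count of 1 became 0 with quantile normalization, with the GHsf B3 arrays averaged, with WT plates of BRIC B only, with the replicate block and by adjusted p, and 2 with canister as a term. In GHsf : GWt the count of 0 became 2 with BRIC B only (ISA3 and MEX1) and 1 with canister as a term (MEX1). In FHsf : FWt the count of 1 became 0 with BRIC B only, with canister as a term and by adjusted p. The difference of responses went from 0 to 1 with BRIC B only (BAM6). Leaving out 1 unit gave 0 to 1, 0 to 2, 0 to 2, 0 to 2 and 0 to 1 called genes in these 5 comparisons. Leaving out both GHsf B3 arrays left GHsf with array B5-2 alone, and first-run arrays only left it with B3 alone. With 1 GHsf array, only effect sizes are given for these 2 fits. ISA1 in FHsf : GHsf was -1.3 and -1.89 in them.

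ISA1 ran from -1.90 to -0.81 in FHsf : GHsf, where 10 of 27 alternatives ended the call, and from -2.0 to -0.88 in FHsf : FWt, where 3 of 26 did. Samples with the same plate position did not deviate together (correlations 0.0023 to 0.094 in WT and -0.042 to 0.125 in the knockout), so positions do not pair them. With the replicate block ISA1 was -0.81 in FHsf : GHsf, and the block could not be fitted between genotypes. By titles no GHsf array shares the position of FHsf B4, so FHsf B4 does not enter this fold change. This alternative is therefore not separate from the fit without FHsf B4 (-0.84). With 3 or 4 units a group, members below the median signal had a median SD of 1.71, which limits what could be called among them.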
